A study of Mus musculus with 8 samples.

Results

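The genes described are 10 transcripts that mark effector and memory T cells through their cytoskeleton, lectins and calcium-binding proteins: Vim, Lgals1, Lgals3, S100a4, S100a6, S100a10, S100a11, Anxa1, Anxa2 and Hopx. They were taken by symbol from a deposited table of read counts for 49040 genes, and all 10 passed the filter on low counts that left 14672 genes. The genes were chosen by their measured log2 changes between knockout and wild-type libraries, so the values of that contrast are a description of these genes and support nothing further. RNA was measured in mouse CD4+ T cells of strain C57BL/6J, either wild type or Ikzf4-/-, a knockout of the gene for the Ikaros-family zinc-finger factor Eos. In both genotypes, naive cells had been cultured for 72 h with plate-bound antibodies to CD3 and CD28 in a Th1-polarizing setting. Each genotype had 4 libraries, with replicate numbers 1 to 4 in both. The labels name no other allele or agent, and give neither the purity of the naive cells nor what a shared number stands for, so a p-value here reflects library-to-library spread that may be technical.

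Vimentin is the intermediate filament of lymphocytes and other mesenchymal cells, a cage that resting T cells rearrange when they polarise and migrate. Galectins are lectins that bind beta-galactosides on surface glycoproteins; galectin-1 is known for restraining T cells and galectin-3 for forming lattices with branched N-glycans at the T cell surface. S100 proteins are small EF-hand proteins that dimerise and bind partners when calcium rises, and annexins bind acidic membrane phospholipids in a calcium-dependent way. The families meet in complexes: the S100A10 dimer joins annexin A2 at the plasma membrane, and S100A11 binds the N-terminal helix of annexin A1. Hopx, the homeodomain-only protein, lacks the DNA contacts of other homeodomains and acts with partner factors; in mouse Th1 cells it is known for the survival of repeatedly stimulated effector cells. All of these genes are commonly higher in effector and memory than in naive T cells.

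The sequences upstream of the transcription starts are shown as background, since the deleted factor belongs to a family that contacts the core GGGAA. Whether they have a part in the genotype differences was not tested. RefSeq (GRCm38.p6) gave a promoter for 8 of the 10 genes, Lgals1 and S100a10 being named only, and the 250 bases before the first listed start were read. Those of Vim, Lgals3, S100a6 and Hopx follow 5′ to 3′, with capitals, on either strand, for the Ikaros-family core (GGGAA) and for the TATA box (TATAAA). The AP-1 element, TGANTCA, was searched too and is absent from these 4 windows.
Vim (chr2:13574061-13574310, plus strand): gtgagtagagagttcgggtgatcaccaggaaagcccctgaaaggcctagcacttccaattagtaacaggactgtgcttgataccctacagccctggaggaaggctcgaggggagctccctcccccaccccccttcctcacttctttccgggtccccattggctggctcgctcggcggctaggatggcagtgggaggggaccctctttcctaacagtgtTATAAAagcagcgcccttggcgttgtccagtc
Lgals3 (chr14:47373610-47373859, plus strand): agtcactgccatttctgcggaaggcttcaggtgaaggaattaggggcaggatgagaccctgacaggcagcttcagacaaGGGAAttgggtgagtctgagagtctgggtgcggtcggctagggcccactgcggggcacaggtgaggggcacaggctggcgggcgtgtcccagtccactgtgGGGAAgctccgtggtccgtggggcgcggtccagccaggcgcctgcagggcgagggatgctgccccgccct
S100a6 (chr3:90612644-90612893, plus strand): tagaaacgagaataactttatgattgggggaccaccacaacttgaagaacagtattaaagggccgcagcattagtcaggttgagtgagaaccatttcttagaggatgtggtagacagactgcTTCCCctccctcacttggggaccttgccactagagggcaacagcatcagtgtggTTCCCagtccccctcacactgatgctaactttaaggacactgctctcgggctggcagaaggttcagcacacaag
Hopx (chr5:77115124-77115373, minus strand): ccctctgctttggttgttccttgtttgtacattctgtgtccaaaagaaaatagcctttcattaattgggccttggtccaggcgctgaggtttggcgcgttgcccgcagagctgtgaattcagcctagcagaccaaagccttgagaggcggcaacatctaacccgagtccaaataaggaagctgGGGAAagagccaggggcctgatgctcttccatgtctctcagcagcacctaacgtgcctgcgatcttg
The core GGGAA, read on both strands as GGGAA or TTCCC, occurred in 7 of the 8 promoters and in 55.9% of 27025 mouse promoters of the same length. It shares letters with the NFAT core GGAAA, so 1 site can hold both. Vim was the promoter without it. TATAAA was found upstream of Vim, S100a4, Anxa1 and Anxa2, that is in 4 of 8 against 13% of all promoters. TGANTCA was found upstream of S100a11 and Anxa2, against 6.87% of all promoters, and the GC box GGGCGGG upstream of S100a11, Anxa2 and Lgals3, against 23.6%. These matches describe letters in the window, not bound sites.

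Library totals ran from 25227017 to 53149322 counts. Ikzf4 itself stood at 41.1 to 54.9 CPM (counts scaled to library size with TMM factors) in wild type and at 2.14 to 4.88 CPM in the knockout, as the labels require. The 6 T cell markers summed to 1880 to 2270 CPM in wild type and 1800 to 2060 CPM in the knockout. Cd247 among them was called lower with the replicate block, from 249.9 ± 10.42 to 188.1 ± 25.05 CPM. Cd4 stood at 510.4 ± 67.72 CPM in wild type and 563.7 ± 100.7 in the knockout. The 2 CD8 genes summed to 4.44 to 12.7 and 3.32 to 16.2 CPM, so the label CD4+ T cells was met. By Xist and Ddx3y, the libraries numbered 2 came from female mice in both genotypes and the other 6 from males. Markers of 3 other kinds of cell moved with genotype or with single libraries. The 8 genes of gamma-delta T and NK cells summed to 21.9 to 76.1 CPM in wild type and 9.22 to 30.4 CPM in the knockout; 4 of them, the receptor genes Trdc, Tcrg-C1, Tcrg-C2 and Tcrg-C4, were called lower with the replicate block, and the NK gene Ncr1 was at 0. The 7 mast cell and basophil genes summed to 20.7 CPM in wild type 1, to 16.7 in wild type 3 and to at most 3.96 elsewhere. The granulocyte sum reached 62.1 and 78.9 CPM in wild type 3 and 4, with a knockout maximum of 14.9; nearly all of it was Ly6g, called with the block, while S100a8 and Retnlg were at 0 in every library. The 10 macrophage and monocyte genes, a cell type rich in galectin-3 and vimentin, summed to 5.13 to 8.34 and 4.04 to 7.71 CPM. In bulk RNA, fewer cells of a type and less RNA per cell cannot be told apart.

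The 10 genes span a wide range of abundance. Per kilobase of exon, wild-type libraries held 497 ± 50.4 CPM of Lgals1 and 412 ± 75.7 CPM of Vim (mean ± SD, n = 4), ranks 86 and 107 among 14521 genes with a length. Next came S100a10 at 230 ± 25.5, S100a11 at 111 ± 23.9, Anxa2 at 107 ± 55.9 and Lgals3 at 79.8 ± 22 CPM per kilobase. Hopx stood at 50.8 ± 16.4 and S100a6 at 29.2 ± 13 CPM per kilobase. S100a4 at 4.93 ± 3.52 and Anxa1 at 0.780 ± 0.301 CPM per kilobase were the scarcest. Within this order, neighbours whose SDs overlap were not ranked, and levels were not compared library by library. This holds for Lgals1 and Vim, for S100a11, Anxa2 and Lgals3, for Lgals3 and Hopx, and for Hopx and S100a6. The level of S100a10 thus lay above that of its partner Anxa2, and the level of Anxa1 below that of S100a11 by more than their SDs. In the knockout the first places were again held by Lgals1 (302 ± 57.9, rank 141), Vim (227 ± 53.6, rank 183) and S100a10 (188 ± 30.6 CPM per kilobase).

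The comparison of genotypes asks how these transcripts stood in Th1 cells lacking Eos. All 10 had lower mean levels in the knockout, with a median log2 change of -0.88 against -0.003 over all genes tested, of which 50.5% were below 0. With genotype as the only term, edgeR called 0 of the 10 (0.102% of all genes were called lower and 0.0545% higher), and 7 of 10 had an unadjusted p under 0.05 against 8.10% of all genes. A fit that blocked on replicate number called 8 lower and 0 higher, where 4.01% of all genes were called lower and 6.71% either way: Vim, Lgals1, Lgals3, S100a6, S100a10, S100a11, Anxa1 and Hopx. DESeq2 without the block called Vim, Lgals1, Lgals3 and S100a6 (1.02% of all genes called lower), and the authors' deposited table called the same 4 (1.07%). Nothing is read from these counts, because this contrast was known when the list was made. Below, log2 changes are knockout minus wild type, first from the fit without the block and then with it.

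**Figure D1:**
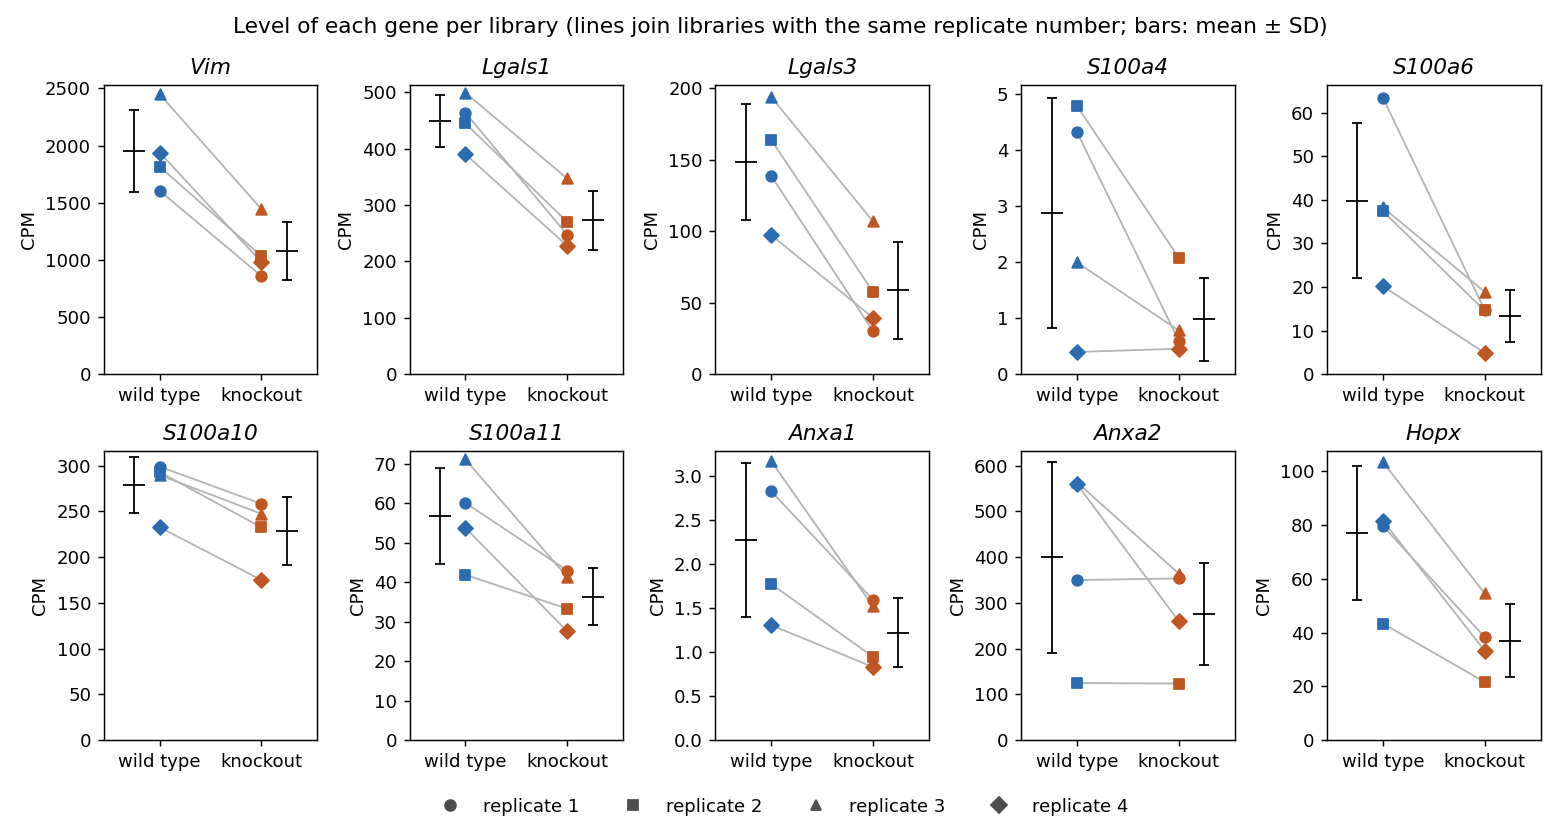
CPM of each gene (vertical axes, from 0) in the 4 wild-type and 4 knockout libraries, with lines joining libraries of the same replicate number and bars for the mean and SD. Vim, Lgals1 and S100a6 have no knockout library as high as the lowest wild-type library, whereas the lines of Anxa2 are flat for numbers 1 and 2.

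The cytoskeletal member, Vim, had 1604, 1815, 2449 and 1939 CPM in wild type 1 to 4 and 858.5, 1033, 1444 and 980.2 CPM in knockout 1 to 4. Every knockout library lay below every wild-type library, which held for 3 of the 10 genes and for 2.49% of all genes (2.47% had the knockout wholly above). In pairs 1 to 4 the knockout had 53.5%, 56.9%, 59.0% and 50.6% of the wild-type level. Of the 10 genes 8 were lower in the knockout in 4 of 4 pairs, as were 14.8% of all genes, while 15.8% were higher in all 4. The log2 change was -0.86 ± 0.18 (SE) without the block and -0.87 ± 0.07 with it, a ratio of 1.81. The remainder after genotype and number held 0.721% of its sum of squares.

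Of the galectins, Lgals1, which encodes the dimeric galectin-1, had 463.5, 444.5, 498.9 and 389.8 CPM in wild type against 247.1, 270.2, 346.9 and 227.6 in the knockout. The groups did not overlap. Its log2 change was -0.72 ± 0.14 without the block and -0.73 ± 0.08 with it. Lgals3, which encodes the chimeric galectin-3 with its self-associating tail, had 138.6, 163.7, 193.7 and 97.15 CPM in wild type against 30.08, 57.5, 106.8 and 39.44 in the knockout. Here knockout 3 lay above wild type 4, so the groups overlapped, although each knockout library was lower than its partner of the same number. The size of the difference varied from 21.8% of the wild-type level in pair 1 to 55.1% in pair 3, and the log2 change was -1.34 ± 0.38 without the block and -1.46 ± 0.18 with it.

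The 4 S100 genes differed in size of change. S100a6, which encodes calcyclin, had 63.49, 37.44, 38.31 and 20.21 CPM in wild type against 14.77, 14.62, 18.92 and 4.873 in the knockout. Its groups were separate, though knockout 3 came close to wild type 4. The log2 change was -1.58 ± 0.43 without the block and -1.61 ± 0.18 with it, and 23.3% to 49.3% of the level remained by pair. S100a4, which encodes a binder of non-muscle myosin IIA, was scarce, with 191, 170, 61 and 10 counts in wild type and 21, 112, 20 and 12 counts in the knockout. It was lower in the knockout in pairs 1 to 3 and not in pair 4, where both libraries were near the lowest level seen. Its log2 change of -1.53 ± 0.73, or -1.49 ± 0.38 with the block, was not called, but with the block it was called once pair 4 was left out.

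S100a11 and S100a10, the annexin partners, showed smaller differences. S100a11 had 60.09, 41.87, 71.1 and 53.75 CPM in wild type against 42.96, 33.29, 41.35 and 27.58 in the knockout. The groups overlapped through wild type 2, and each pair was lower in the knockout. The log2 change was -0.64 ± 0.19, and with the block -0.64 ± 0.11, a call lost without pair 3. Abundant S100a10, whose EF-hands have lost calcium binding, had 299.0, 293.1, 289.7 and 232.7 CPM in wild type against 258.3, 232.6, 247.4 and 175.0 in the knockout. It kept 75.2% to 86.4% of the wild-type level in the 4 pairs, and its log2 change of -0.29 ± 0.14, or -0.30 ± 0.07 with the block, was the smallest of the 10. That call was lost without pair 1, 3 or 4.

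Of the annexins, Anxa1, which encodes a mediator known for damping inflammation, was scarce, with 125, 63, 97 and 33 counts in wild type and 56, 51, 39 and 22 counts in the knockout. Every pair was lower in the knockout, at 49.0% to 65.1% of the wild-type level, with a log2 change of -0.90 ± 0.36, or -0.87 ± 0.19 with the block, whose call was lost without pair 1, 3 or 4. Anxa2 had 349.8, 124.6, 563.5 and 559.6 CPM in wild type against 353.3, 123.6, 363.9 and 259.6 in the knockout. Pairs 1 and 2 were level, at 101% and 99.2% of wild type, while pairs 3 and 4 stood at 64.6% and 46.3%. Its log2 change of -0.54 ± 0.47, or -0.43 ± 0.17 with the block, was called in neither fit. S100a10 and Anxa2, which encode the 2 parts of 1 complex, thus had different values by pair, a difference that was not tested.

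Hopx had 79.73, 43.34, 103.5 and 81.69 CPM in wild type against 38.37, 21.64, 54.57 and 33.28 in the knockout. The groups overlapped through wild type 2, which lay below knockout 3; the libraries numbered 2 were low in both genotypes. Within pairs the difference was even, with 40.9% to 52.8% of the wild-type level left, and the log2 change was -1.06 ± 0.32, or -1.07 ± 0.09 with the block. Its antisense transcript Hopxos overlaps its exons and had 261 counts in wild type and 96 in the knockout, against 10280 and 4791 for Hopx, and the strand setting of the counting is not given in the sources used here. The other shared sequences were small in counts: the processed pseudogenes Gm12854 and Gm7665, over 98% identical to S100a11, held 73 and 27 counts in wild type against 7667, and Gm42674, which overlaps S100a4, held 14 against 432.

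**Figure D2:**
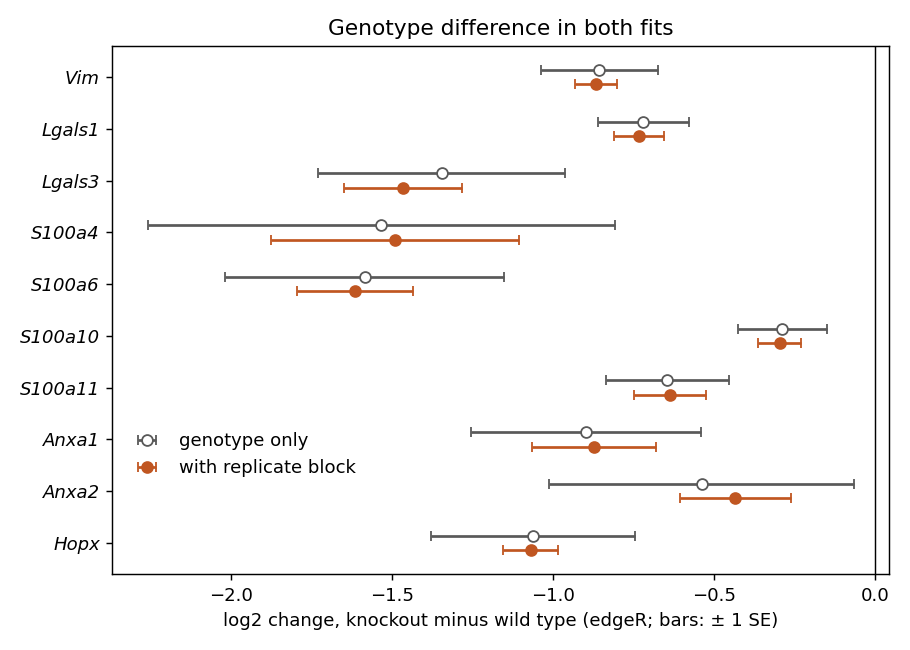
Log2 change, knockout minus wild type, with bars of 1 SE, from edgeR with genotype only (open) and with the replicate block (filled). All 10 values lie below 0 in both fits, and the block narrows the errors, for Hopx from 0.32 to 0.09.

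Without pairs 1 and 3, which hold the wild-type libraries with mast cell and basophil reads, the blocked fit called Vim, Lgals1, Lgals3, S100a6 and Hopx. These 5 were also called whichever single pair was left out. Few libraries remain in such fits and the genes were chosen by this contrast, so the part of the mast cell and basophil reads was not tested. The part that the gamma-delta receptor genes have in the differences was not tested, and their values run beside those of S100a6 in particular, as given below.

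The replicate numbers offer a comparison that the choice of genes did not use. An F test over the 4 numbers in the blocked edgeR fit called 9 of the 10 genes, where it called 28.8% of all genes tested. Of the 8 members that the same fit called by genotype it called 7, against 64.8% of the 984 genes so called. Both tests use the same remaining spread of each gene, so they are not independent. The exception among the 10 was S100a11 (adjusted p = 0.0568). Anxa2 had the largest share of its spread between numbers, 84.1% of its sum of squares (adjusted p = 0.004215), and its mean over both genotypes was 1.25 log2 units below its overall mean in number 2 and 0.62 above it in number 3. Both libraries numbered 2, at 124.6 and 123.6 CPM, lay below the lowest of the other 6, at 259.6 CPM. Number 2 was also the lowest for Hopx, by 0.73 log2 units (adjusted p = 0.00105), and the sex of the mice is one thing that sets it apart; its part was not tested.

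Number 4 was lowest for the 4 genes S100a4, S100a6, S100a10 and Anxa1, and also for Lgals1 and Lgals3. S100a4 lay 1.5 log2 units below its overall mean there and 1.24 above it in number 2 (adjusted p = 0.0255), and S100a6 lay 1.07 below (adjusted p = 0.00951). For S100a10 the drop was 0.31 (adjusted p = 0.0231) and for Anxa1 0.58 (adjusted p = 0.0381). Number 3 was highest for Vim (0.40 above its mean, adjusted p = 0.00433), Lgals1 (0.26, adjusted p = 0.0433) and Lgals3 (0.73, adjusted p = 0.0178). It was also highest for Anxa1 (0.454), Anxa2 (0.62), Hopx (0.565) and S100a11 (0.281, not called by number). For S100a4, S100a6 and S100a10 another number was highest. The genes therefore did not rank the replicate numbers in 1 order, and S100a4 and Anxa2 in number 2 went opposite ways. Ahnak, which encodes a giant scaffold bound by the annexin A2 and S100A10 complex and was picked out after its values were seen, had 108 and 118 CPM in the libraries numbered 2 and 153 to 266 CPM in the others (F test over numbers, edgeR adjusted p = 0.00544).

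**Figure D3:**
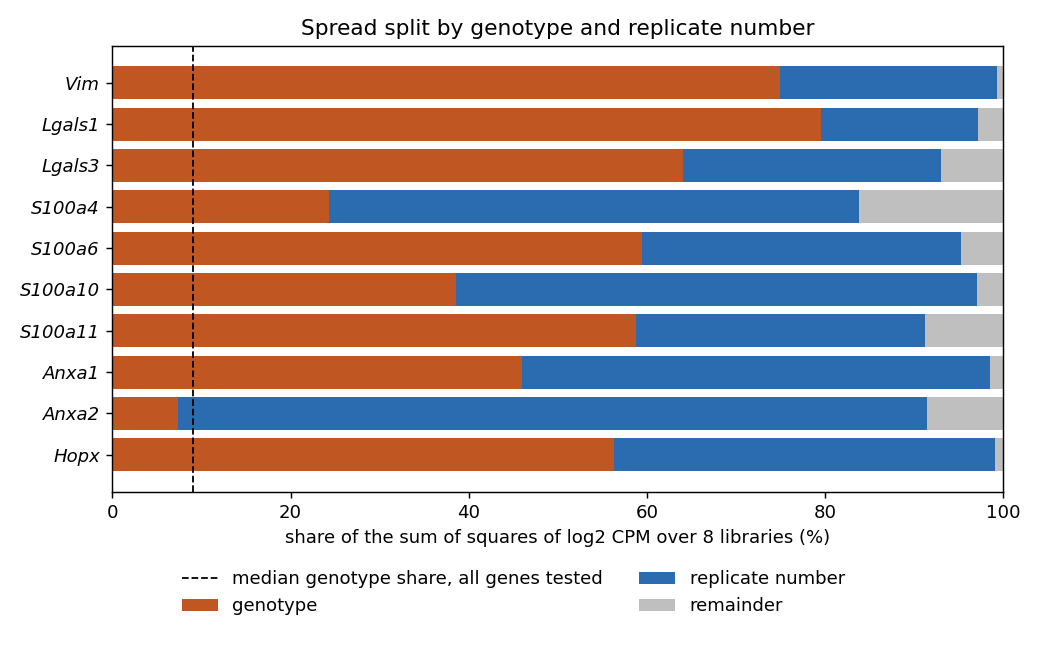
Share of each gene's sum of squares of log2 CPM over the 8 libraries (horizontal axis, percent) that falls to genotype, replicate number and the remainder, with the median genotype share of all genes tested as a dashed line. Genotype takes 79.6% for Lgals1 and 74.9% for Vim but 7.39% for Anxa2, where number takes 84.1%.

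Split this way, genotype held 56.3% to 64.0% of the spread of Hopx, S100a11, S100a6 and Lgals3, and 24.3% to 46.0% of that of S100a4, S100a10 and Anxa1. The median over all genes tested was 9% for genotype and 65.2% for number. The genotype shares restate the contrast by which the genes were known. Over the 8 libraries S100a6 spanned 3.69 log2 units and S100a4 3.42, whereas S100a10 spanned 0.77, less than the median gene at 0.82.

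The patterns most like those of the 10 genes were sought among 8733 other genes with at least 10 CPM, by the root mean square difference of centred log2 CPM over the 8 libraries. For S100a6 the nearest was Tcrg-C2, a constant-region gene of the gamma-delta receptor, at 0.292 log2 units. Tcrg-C2 had 24.5, 19.1, 19.0 and 7.65 CPM in wild type against 6.70, 7.36, 5.23 and 2.49 in the knockout, so both genes were highest in wild type 1 and lowest in knockout 4. The same gene was nearest to S100a4, at a looser 0.719. For Lgals3 the nearest was Ikzf2, which encodes the Ikaros-family factor Helios, at 0.257, with 14.4 ± 5.84 CPM in wild type against 5.71 ± 3.12 in the knockout. For Hopx it was Ifng, the signature Th1 cytokine, at 0.135, with 1332 ± 375 and 600 ± 211 CPM.

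Vim was nearest to Cndp2, a dipeptidase gene (0.145), and Lgals1 to Hmox1, which encodes the haem-degrading oxygenase (0.147). S100a10 was nearest to Cuta (0.0509), S100a11 to Klf7, a Kruppel-like factor gene (0.111), Anxa1 to the cytokine gene Osm (0.223) and Anxa2 to A230050P20Rik (0.172). Within the list, Vim and Lgals1 were each other's nearest, 0.186 apart, ranking 4 for Vim and 9 for Lgals1. For S100a10 the nearest of the 10 was Lgals1, at 0.268, which ranked 2780 by likeness. Likeness was used as a description only, and it favours genes with little spread. It also takes in the genotype difference by which the 10 genes were chosen, so a near gene tends to share that difference.

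**Figure D4:**
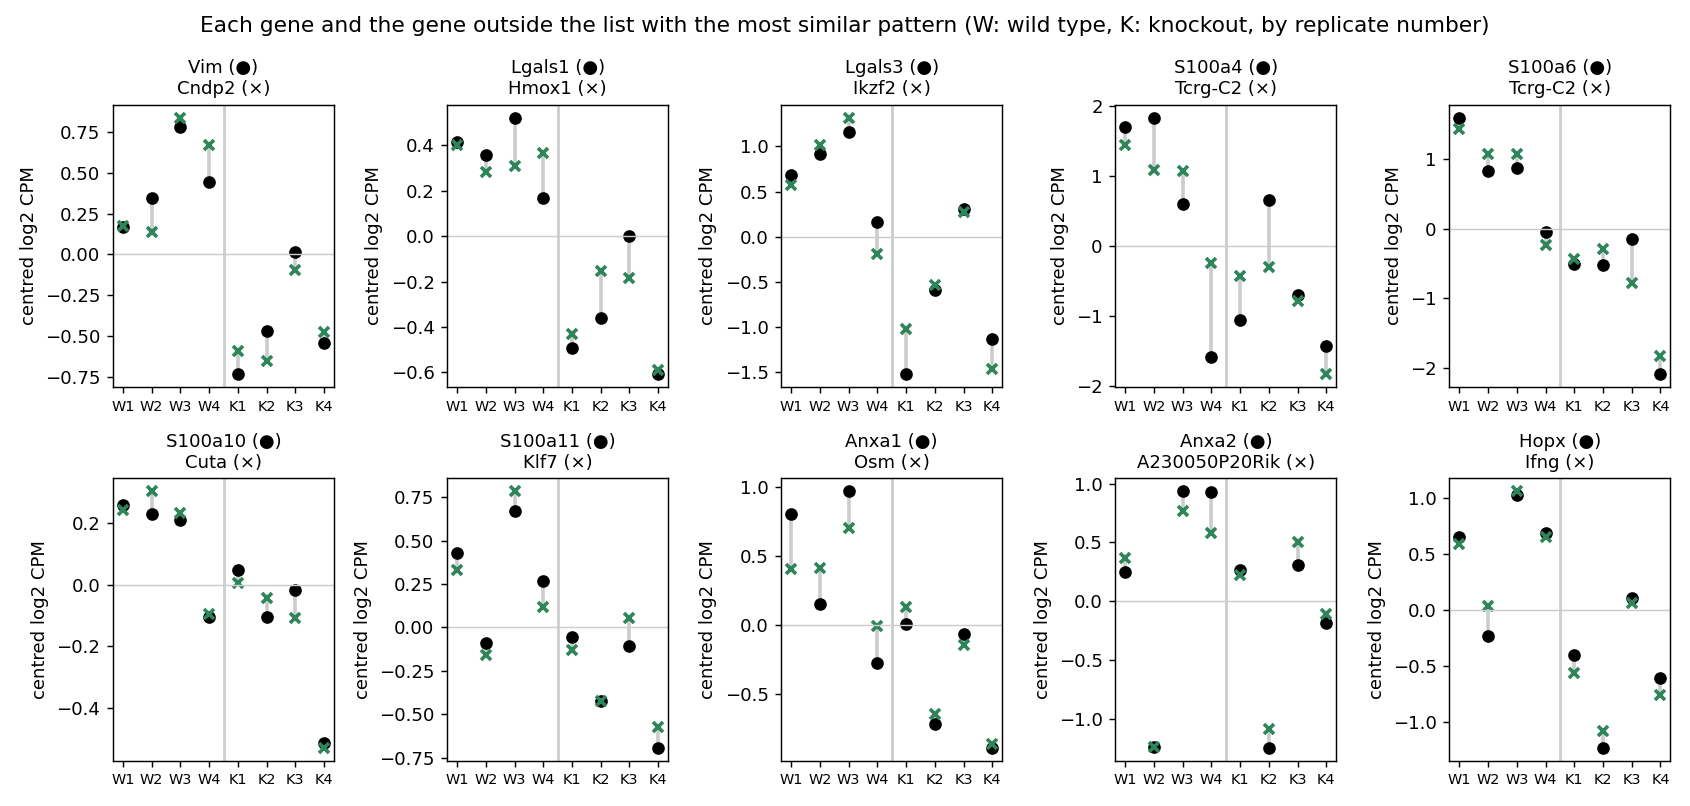
Centred log2 CPM (vertical axes) in wild type 1 to 4 (W) and knockout 1 to 4 (K) for each gene (dots) and the gene outside the list with the most similar pattern (crosses), with grey bars for the gap. The root mean square of the gaps is 0.135 for Hopx and Ifng and 0.719 for S100a4 and Tcrg-C2, and both libraries numbered 2 are low for Anxa2.

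The remaining genes of the same families and roles were examined from lists set by family and function. These lists were chosen with earlier results of these data known. Of 165 such genes 127 were tested. Without the block edgeR called 1 of them (0.157% of all genes called either way), Itga5, which encodes an integrin chain that binds galectin-1, from 13.03 ± 3.231 to 4.06 ± 0.593 CPM (log2 change -1.68 ± 0.22, adjusted p = 0.0269). Leaving out a single library ended that call in 7 of 8 fits. With the block 26 fell (4.01% of all genes) and 12 rose (2.69%), while DESeq2 without the block called 12. Values below are from the blocked edgeR fit. The shares of all genes to set beside each list are therefore 4.01% called lower and 2.69% called higher.

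The S100 family was expressed in part. Of 13 further S100 genes 3 were tested, 1 fell and 0 rose. S100a13, which takes part in export of proteins without a signal peptide, fell by 0.50 ± 0.08 on the log2 scale (adjusted p = 0.0107, call lost without pair 3), from 32.9 ± 3.94 to 23.2 ± 2.10 CPM. S100a1 (-0.42 ± 0.20) and S100a3 (-0.29 ± 0.27) were not called (adjusted p = 0.269 and 0.588). The alarmin gene S100a8 had 0 counts in every library, which allows up to 0.0557 to 0.119 CPM by library for counting error only, and S100a9 had 1 count in all. All 7 tested S100 genes lie on chromosome 3. S100a4 (90603771 to 90606045, GRCm38, plus strand) and S100a6 (90612882 to 90624181) are 6.84 kb apart with S100a5 between them, and S100a11 and S100a10 lie 2.9 Mb further on, 28.8 kb from each other with no protein-coding gene between. The first pair had the 2 lowest log2 changes of the family, -1.49 for S100a4 and -1.61 for S100a6. The second had -0.64 for S100a11 and -0.30 for S100a10, with S100a13 at -0.50 upstream of the first pair. Both pairs consist of genes chosen by this contrast.

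Among 7 further annexins tested of 10, 1 fell and 0 rose. Anxa6, the large annexin with a doubled core, was the most abundant of them at 593 ± 49.2 CPM in wild type against 390 ± 30.0 in the knockout. It fell by 0.61 ± 0.07 (adjusted p = 0.00268), with separate groups, 531 to 647 against 354 to 426 CPM. Anxa5, the phosphatidylserine binder, changed by +0.09 ± 0.08 and Anxa4 by +0.25 ± 0.12, neither of them called (adjusted p = 0.555 and 0.277). Anxa7 (-0.10 ± 0.07), Anxa11 (-0.27 ± 0.09), Anxa3 (-0.40 ± 0.31) and Anxa9 (+0.14 ± 0.22) were not called either. The median change of the 7 was -0.11. The receptors of annexin A1 on leukocytes, Fpr1, Fpr2 and Fpr3, had 0 counts in every library.

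Of 6 further genes tested in the galectin list, 2 rose and 0 fell. Lgals7 rose by 0.84 ± 0.11 (adjusted p = 0.00366), from 10.01 ± 3.552 to 18.3 ± 7.92 CPM, and Lgals3bp, which encodes a secreted glycoprotein that binds galectin-3, rose by 0.42 ± 0.07 (adjusted p = 0.00802, call lost without pair 1 or 3). In Lgals3bp the knockout was higher in each pair, with 141, 96.7, 70.5 and 66.2 CPM in wild type against 196, 131, 92.2 and 86.0 in the knockout. Lgals9, which encodes a ligand of TIM-3, changed by +0.13 ± 0.12 and Lgals8 by -0.36 ± 0.10 (adjusted p = 0.572 and 0.0645), and Lgals4 and Lgalsl were not called.

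On the glycan side, 7 of 20 tested galectin counter-receptors and glycan enzymes fell and 2 rose, against 4.01% and 2.69% of all genes. Havcr2, which encodes TIM-3, fell by 1.87 ± 0.12 (adjusted p = 0.000201) and Itga5 by 1.65 ± 0.15 (adjusted p = 0.0006). Gcnt1, the core 2 enzyme that builds O-glycans carrying galectin ligands, fell by 1.70 ± 0.16 (adjusted p = 0.000735), from 25.1 ± 10.6 to 7.62 ± 2.90 CPM, and its groups did not overlap. Itgb1, the beta chain that pairs with the product of Itga5, rose by 0.44 ± 0.07 (adjusted p = 0.0113, call lost without pair 1 or 3). St6gal1, whose alpha-2,6 sialylation masks galectin-1 ligands, rose by 0.46 ± 0.11 (adjusted p = 0.0393), a call lost without pair 1, 2 or 3. Mgat5, the branching enzyme whose N-glycans galectin-3 binds, changed by +0.56 ± 0.14 and was not called (adjusted p = 0.0541).

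Of 7 other intermediate filament genes tested 1 fell and 0 rose. Lmna, which encodes the lamins A and C of the nuclear envelope, fell by 1.25 ± 0.24 (adjusted p = 0.0201, call lost without pair 1 or 3), from 29.3, 10.4, 13.97 and 8.20 to 13.7, 7.02, 5.89 and 1.47 CPM. The groups overlapped, and each pair was lower in the knockout. The B-type lamin genes Lmnb1 (+0.07 ± 0.06) and Lmnb2 (+0.005 ± 0.084) and the keratin gene Krt10 (-0.03 ± 0.16) were not called, nor were Nes (+0.03 ± 0.50) and Ina (+0.18 ± 0.17). Prph, which encodes peripherin, changed by -0.85 ± 0.22 (adjusted p = 0.0549).

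Among 29 linkers of vimentin and actin, 1 fell and 2 rose, where 6.71% of all genes were called either way, and the median change was +0.008. Crip1, a LIM-domain gene of effector cells, fell by 0.77 ± 0.16 (adjusted p = 0.0249, call lost without pair 2, 3 or 4). Cotl1, the actin-binding coactosin-like gene, rose by 0.63 ± 0.07 (adjusted p = 0.00209), from 191 ± 13.3 to 298 ± 50.8 CPM, and the calponin gene Cnn2 rose by 0.27 ± 0.06 (adjusted p = 0.0389, call lost without pair 1, 3 or 4). Of the partners and receptors of annexins and S100 proteins 11 of 22 were tested, 1 fell and 2 rose. Myh9, the heavy chain of the myosin IIA to which S100A4 binds, rose by 0.40 ± 0.09 (adjusted p = 0.0301, call lost without pair 1 or 4) and Myh10 by 0.60 ± 0.12 (adjusted p = 0.0198, call lost without pair 3 or 4). Dysf, the membrane-repair gene dysferlin, fell by 1.63 ± 0.37 at under 1 CPM (adjusted p = 0.0344, call lost without pair 1 or 4; without pair 3 it gave no adjusted p). None of 12 tested SRF cofactors and Hopx partners was called by edgeR with or without the block, nor by DESeq2 without it.

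In the lists of T cell state, 11 of 19 effector genes fell and 1 rose, and 3 of 13 naive and central memory genes fell and 3 rose. Over all genes tested, 4.01% were called lower and 2.69% higher. Gzmb, Ifng and Prf1 were the effector genes with the smallest p, at -2.25 ± 0.15, -1.17 ± 0.08 and -2.22 ± 0.16 (adjusted p = 0.000201, 0.000232 and 0.000232). Cd44, the hyaluronan receptor that marks antigen-experienced T cells, went the other way at +0.34 ± 0.08 (adjusted p = 0.0393, call lost without pair 1, 3 or 4). Il7r fell by 1.02 ± 0.08 (adjusted p = 0.000394), Klf2 by 0.68 ± 0.15 and Satb1 by 0.66 ± 0.15 (adjusted p = 0.0345 and 0.0379, calls each lost without pair 2, 3 or 4). Bach2 and Tcf7 rose by 0.49 ± 0.07 and 0.52 ± 0.08 (adjusted p = 0.00639 and 0.00836, both lost without pair 3), and Dapl1 by 1.28 ± 0.23 (adjusted p = 0.0158, lost without pair 1).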

How the data were processed

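RNA from 8 libraries of stimulated CD4+ T cells was analysed, 4 per genotype. The authors deposited whole-number read counts per gene, made per the submitters' processing notes with STAR 2.5.2 and featureCounts of Subread 1.5.2 on GRCm38. Annotation, strand setting and the handling of multi-mapped reads: not given in the sources used here. Per the file headers, the deposited table also holds the authors' DESeq2 output: a mean normalized count (a signal), log2 fold changes of wild type over knockout with their standard errors on the log2 scale, a Wald statistic (a score), and p-values with adjusted p-values.

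From the counts, CPM with TMM factors and log2 CPM (prior count 2) were computed. The main test was edgeR 4.0.16 (quasi-likelihood, filterByExpr, genotype only) in R 4.3.3, with Benjamini-Hochberg adjustment over 14672 genes at 0.05. SEs are the log2 change divided by the root of the F statistic. DESeq2 1.42.0, RLE factors, no filter, left-out libraries and the replicate number as a block were alternatives. Deviations from the group means correlated between libraries of 1 number ( 0.612 to 0.732, each of the 8 libraries best with its own number), and this pairing comes from the values, not the labels. No libraries of a group agreed within sampling noise. Fits were tested on simulated data. Lengths are exon unions of GENCODE M21. Copies were sought with blastn 2.17.0+ at 95% identity over 100 bases.

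The members and lists were chosen with earlier results of these data known. Named are the 10 members, tested genes of their families, called genes of each list (up to 3 per direction with the block) and, per member, the gene of most similar pattern.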

Additional observations from a re-analysis of the deposited data

Results flagged for a closer look

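One value stood apart from its group. S100a10 in wild type 4 was at 232.7 CPM, below the other 3 wild-type libraries, whose lowest was at 289.7 CPM; the gap took 0.86 of the whole range of the group. Chance alone gives such a gap in about 1 group in 20, and 20 groups of 4 were examined. Knockout 4 was the lowest knockout library for the same gene, at 175.0 CPM.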

How the results depend on the processing

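All 10 changes kept their sign under every alternative run. Without the block no alternative of edgeR called a member, and DESeq2 called 4. The fit with the replicate block called 8 members, 984 genes and 38 related genes, against 0, 23 and 1 without it; most calls described therefore rest on the pairing by number. DESeq2 without the block called 216 genes and 12 related genes. Without a filter on low counts edgeR called 2 related genes, and 6384 genes differed between numbers. Leaving out 1 library without the block gave 14 to 24 genes, 0 to 0 members and 0 to 1 related genes, with 0 related genes in 7 of the 8 fits.

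The following were added after the data were seen. With the block and without pairs 1, 2, 3 and 4 in turn, 622, 1437, 398 and 529 genes, 6, 8, 5 and 7 members and 31, 41, 20 and 29 related genes were called. Without pairs 1 and 3 the counts were 479, 5 and 23. The block with DESeq2 gave 1373, 9 and 50, with RLE factors 991, 8 and 39, and without a filter 2124, 10 and 58, where S100a4 and Anxa2 were also called. The cause was not tested. Counts were lowest for S100a4 and Anxa1, at 10 to 191 a library, which limits the precision of single values.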

Other observations

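Knockout 1 held more of some B cell transcripts than the other libraries. Pax5 stood at 2.74 CPM there and at 0.113 CPM or less in the other 7, and Ms4a1 at 1.25 CPM against 0.0929 CPM or less. Plat, which encodes the plasminogen activator that the annexin A2 and S100A10 complex binds, was too low to be tested, with 45 counts over the wild-type libraries (6, 0, 22 and 17) and 3 over the knockout libraries. Plg and the calcium channel gene Trpv5, whose product S100A10 carries to the membrane, had 0 counts in every library.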
